A study of Mus musculus with 17 samples.

Results

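Dense clusters are genes with 5 or more listed Msi2 binding regions in the deposited 3' UTR list of a Musashi-2 (Msi2) crosslinking experiment, neighbours that nearly touch being counted apart, and they were chosen by the number of regions listed under each gene symbol. This gave 130 genes with 992 regions, of 1199 genes and 2671 regions in the list. The choice thus rests on the binding measurement itself, and the number, height and spacing of the regions are given below as a description, without a test. The RNA and ribosome footprint measurements were made in other libraries and played no part in the choice.

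The cells were a spontaneously immortalised keratinocyte culture from neonatal skin of the C57BL/6 strain, first grown on mitomycin-treated NIH-3T3 J2 fibroblasts for 3 passages and then on uncoated dishes. The control group received a lentivirus with a scrambled shRNA and the knockdown group one with an shRNA against Msi2, and both were selected with 2 ug/ml puromycin before expansion. RNA sequencing of polyadenylated RNA and ribosome profiling, which sequences the RNA fragments covered by ribosomes, each gave 3 control and 3 knockdown libraries. HITS-CLIP, in which ultraviolet light fixes a protein to the RNA it touches and the bound fragments are sequenced, gave 5 libraries from irradiated cells precipitated with an antibody to Msi2. These 5 differed in RNase, which was undiluted in library 1, diluted 20-fold in libraries 2 and 3 (the low and the high molecular weight fraction), 50-fold in library 4 and 75-fold in library 5. All groups were thus 1 culture line of 1 strain, and the labels do not state whether each library was a culture of its own. The p-values therefore measure the spread between libraries, which may be technical.

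Musashi proteins are RNA-binding proteins with paired RNA recognition motifs that bind short UAG-containing sites, mostly in 3' UTRs, and are known as regulators of translation and RNA stability in stem and progenitor cells. A 3' UTR is the part of an mRNA after the coding sequence, and a long one offers room for many binding sites. Keratinocytes are the epithelial cells of the epidermis, held to the basement membrane by integrins and to each other by desmosomes and adherens junctions.

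Each RNA library held 9221566 to 26785876 reads assigned to genes and each footprint library 512256 to 2959625. Msi2 footprints were 17.1, 16.8 and 18.3 CPM, that is counts scaled to the total of each library, in the controls and 4.53, 0 and 5.12 in the knockdown, a log2 difference of -2.08 ± 0.41 (SE, adjusted p = 0.000285, edgeR's quasi-likelihood test), while Msi2 RNA differed by -0.29 ± 0.21 (adjusted p = 0.283). All 10 keratinocyte markers were measured, and their summed RNA level was 16879 to 20636 CPM in the controls and 14052 to 15747 in the knockdown. Krt5 and Krt14 had the largest part in this sum, with control means of 7045 and 7270 CPM. By the same test at an adjusted p under 0.05, 4 markers were higher in RNA (Itga6, Itgb4, Col17a1 and Lamb3). Another 4 were lower (Krt5, Krt14, Perp and Sfn), and the median log2 difference of the 10 was 0.03. Of all genes tested 22% were higher and 21.7% lower. The 11 fibroblast and feeder markers summed to 17.7 to 22.3 CPM in the controls and 24.6 to 30.1 in the knockdown, with Col3a1, Dcn and Lum at 0 in every library. The share of RNA reads that aligned to several places was 13.4 to 17.4% in the controls and 19.8 to 24.5% in the knockdown. The part of these differences in the changes below was not tested.

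The 12 genes with the most regions had 12 to 23 each. Lnpep, a membrane aminopeptidase of recycling vesicles, had 23 regions, and Prrg4, a single-pass membrane protein with a Gla domain, had 20. Clcn5, the chloride and proton exchanger of endosomes, and Cd44, the hyaluronan receptor, had 17 each. Cald1, the actin-binding caldesmon, had 15, and Emp1, an epithelial membrane protein, and Msn, the moesin that ties actin to the membrane, had 14 each. Cdcp1, a surface protein with CUB domains, Gja1, a gap junction connexin, Lrrc58, a leucine-rich repeat protein, and Ptgs2, the inducible cyclooxygenase of prostaglandin synthesis, had 13 each. Actr2, an actin-related subunit of the complex that nucleates branched actin, had 12. Together these 12 genes held 184 of the 992 regions. At the other end, 42 genes had exactly 5 regions.

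**Figure D1:**
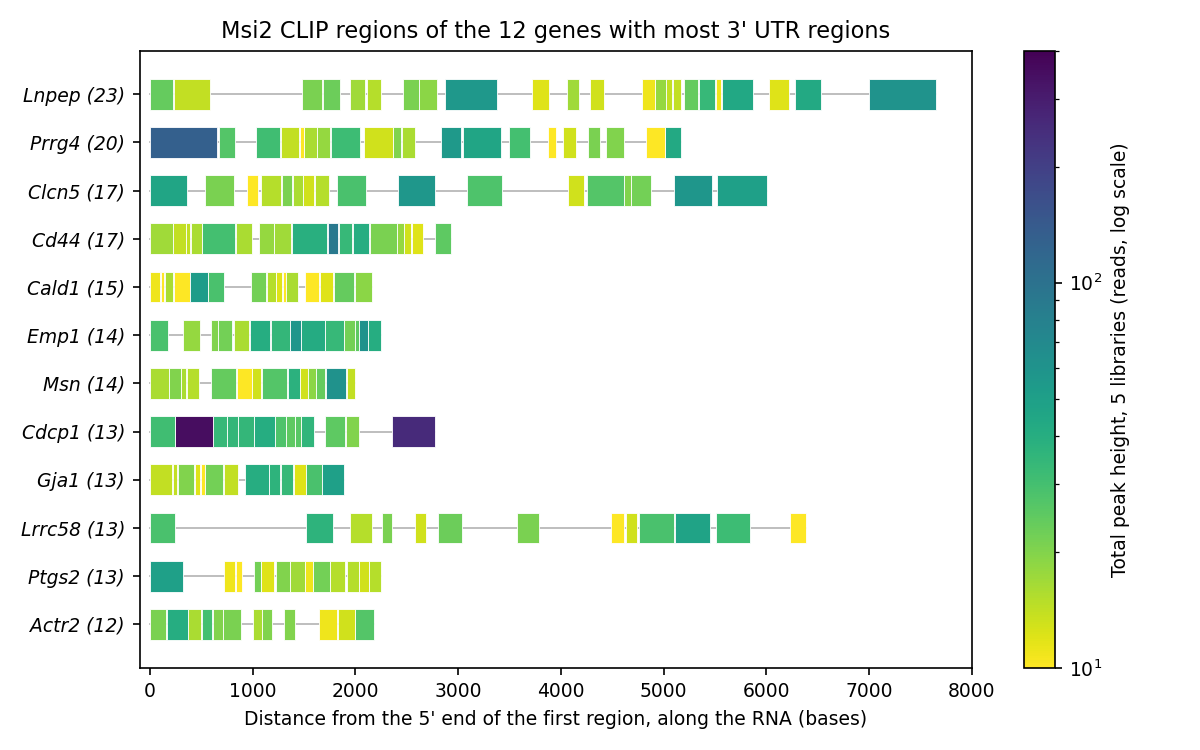
Regions of the 12 genes with the most 3' UTR regions, drawn to scale in bases from the 5' end of each gene's first region along the RNA, with colour giving total peak height over 5 libraries on a log scale and the number of regions in brackets. Lnpep regions spread over 7657 bases, while the 14 regions of Msn lie within 1995 bases, and the 2 darkest regions belong to Cdcp1.

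The 992 regions made up 37.1% of all 3' UTR regions and 37.2% of their summed peak height, in 10.8% of the genes. A region was in the median 165 bases wide (interquartile range 115 to 230.5, extremes 28 and 1196), against 168 in genes with 2 to 4 regions and 149 in genes with 1. Peak height, the authors' total over the 5 libraries, had a median of 18 reads (interquartile range 13 to 30, highest 355), against 16 and 15. Median width and height of a region were thus close in the 3 classes. Regions named as subpeaks in the deposited list had a height below their summed reads, and all other regions a height equal to them. Subpeaks were 40.1% of the cluster regions, against 18.1% in genes with 2 to 4 regions and 1.32% in genes with 1. Height was therefore not a like measure across the classes. The highest region of a gene carried in the median 28.6% of that gene's summed height, from 11.2% in Lnpep to 68.8%.

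Within a gene, all regions lay on 1 chromosome and 1 strand, 63 genes on the plus and 67 on the minus strand. The stretch from the first to the last region had a median of 2484 bases (interquartile range 1900 to 3779, extremes 614 and 14244), against 915 in genes with 2 to 4 regions. The regions covered 57.1% of it in the median gene, against 56.9% in genes with 2 to 4. Per kb of stretch the median was 2.68 regions, against 2.82. A stretch begins and ends with a region, so both measures run higher in genes with fewer regions. Genes with 1 region have 100% covered by definition. The clusters were thus longer, but these 2 measures cannot show which class was more densely filled. The centres of neighbouring regions were 276.5 bases apart in the median (interquartile range 164 to 481), over 862 pairs. In genes with 2 to 4 regions the median was 378.5 bases over 610 pairs. Centres lay within 500 bases in 75.6% of pairs of the dense clusters and in 61.6% of the others, and over 1000 bases apart in 8.0 and 15.4%. Between the ends of neighbouring regions the median gap was 55 bases, against 146, and 48.7% of gaps were under 50 bases, against 35.7%.

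**Figure D2:**
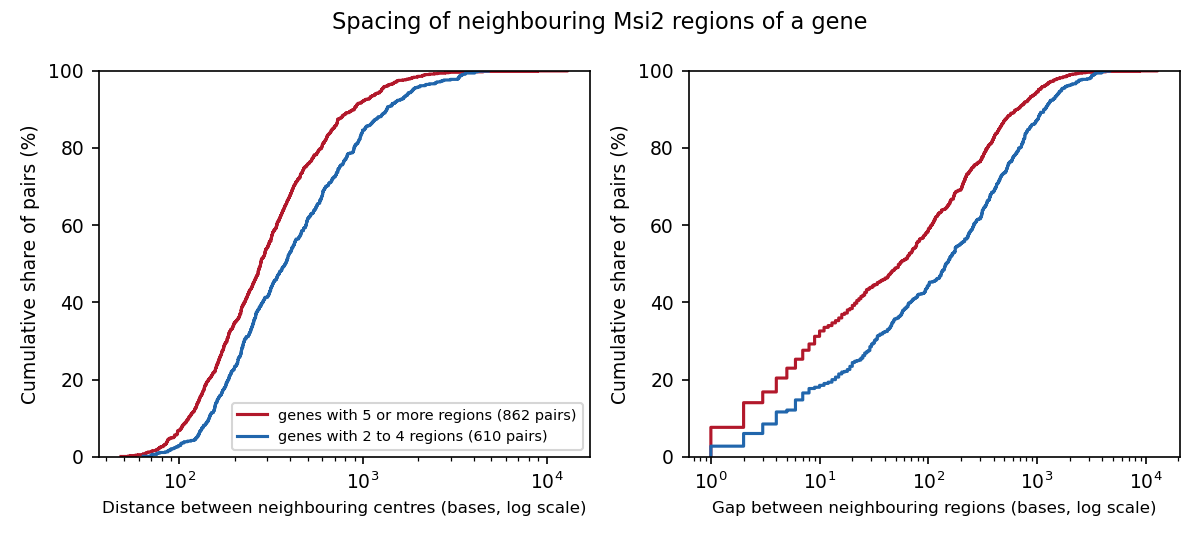
Cumulative share of neighbouring pairs of regions by the distance between their centres (left) and by the gap between their ends (right), both in bases on a log axis, for genes with 5 or more regions (862 pairs) and with 2 to 4 regions (610 pairs). The curve of the genes with 5 or more regions lies to the left in both, with medians of 276.5 and 378.5 bases between centres and of 55 and 146 bases between ends.

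Spacing differed widely among the 130 genes. The tightest was Ppbp, a secreted CXC chemokine, whose 8 regions at chr5:90769407-90770068 had a median centre distance of 77.5 bases and covered 95.8% of 662 bases. Syngr2, a vesicle membrane protein, followed with 94 bases. The widest spacing was that of Zfp871, a zinc finger protein, with 1541 bases over 5 regions, of Ago2, the Argonaute protein that slices and silences target RNAs, with 1395.5 bases over 6 regions, and of Cers6, a ceramide synthase, with 1269 bases over 5 regions. The longest stretch was that of Tmpo, which encodes nuclear lamina-associated proteins. Its 7 regions spanned 14244 bases at chr10:91147572-91161815 although the median distance between them was 174.5 bases. Tmpo and Cd200, a surface glycoprotein with 5 regions over 9746 bases, each had a low covered share of their stretch, 7.4 and 6.1%, against 12.1% in Ago2 (10177 bases) and 59.9% in Lnpep. In the whole set 2 gaps exceeded 5 kb.

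The number of regions depends on how the caller divided a stretch of signal. Of the 992 regions 398 (40.1%) were named as subpeaks in the deposited list, against 18.1% in genes with 2 to 4 regions and 1.32% in genes with 1. In 16 of the 130 genes all regions were subpeaks, among them Cd44, Msn, Gja1 and Actr2, and 55 genes had none, among them Itgav, Ctnnd1 and Sh3pxd2a. When regions under 50 bases apart were joined, 60 genes kept 5 or more, 61 had 2 to 4 and 9 had 1, with 572 joined regions in all. In the 60 genes that kept 5 or more, the centres of the joined regions were 581.5 bases apart and the stretch was 3814.5 bases in the median. On either side of the threshold, the 42 genes with 5 regions had a median stretch of 2284.5 bases and a summed height of 103.5 (62 to 791), and the 63 genes with 4 regions had 1339 bases and 89 (52 to 1215).

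Peak height was spread along the clusters. With the stretch divided in 3 equal parts, 51 genes had their highest region in the part nearest the coding sequence, 30 in the middle and 49 in the part nearest the end. These parts held 33.5, 30.2 and 36.3% of the summed height and 35.4, 29.3 and 35.3% of the regions. The stretch begins and ends with a region, so the middle part alone can be empty, and this split is partly fixed by the definition. Measured against RefSeq genes of GRCm38.p6, which matched all 130 symbols, the summits of the dense clusters lay 1388 bases before the annotated 3' end of the gene in the median (interquartile range 568 to 2585). The medians were 951 bases in genes with 2 to 4 regions and 549 bases in genes with 1. Beyond the annotated end lay 5.24% of the summits, against 2.24% in genes with 2 to 4 regions and 5.01% in genes with 1. In the clusters these were 52 summits in 9 genes, namely 18 of 23 in Lnpep, 13 of 20 in Prrg4, 5 of 10 in Alg10b, 5 of 6 in Ago2, 5 of 6 in Tnks, 3 of 5 in Dsg3 and 1 each in Atl3, Pdzd8 and G3bp1. These genes were singled out after their values were seen. The farthest summits lay 5012 bases beyond the end in Lnpep and 5641 in Ago2.

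Every region of the list has a read in at least 4 of the 5 CLIP libraries, so a region can lack a read in 1 library at most. All 5 libraries had a read in 363 of the 992 regions (36.6%), against 32.6% of the regions in genes with 2 to 4 and 30.4% in genes with 1. Of the other 629 regions, 600 lacked a read in library 1, the shallowest, and 29 in one of libraries 2 to 5, a split that this filter partly fixes. The dense clusters took 657 of 1954 3' UTR reads in library 1 (33.6%, 95% Wilson interval 31.6 to 35.7), 6691 of 17760 in library 2 (37.7%, 37.0 to 38.4) and 10814 of 24566 in library 3 (44.0%, 43.4 to 44.6). In libraries 4 and 5 the share was 42.2% (41.6 to 42.8) and 43.9% (43.3 to 44.5). The share was lowest in the shallowest library, and it was 37.7% in library 2 and 44.0% in library 3, which had the same RNase dilution. The clusters were chosen from regions listed on these same 5 libraries, so the shares are partly fixed by that choice. Reads in subpeaks can be counted in more than 1 region, and over the other regions alone the shares were 23.5, 25.9, 31.5, 30.2 and 32.01% in libraries 1 to 5. The intervals cover counting error only, take each read as independent, and are given as a description without a test.

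The clusters sat on RNAs with many footprints for their RNA reads. In the controls the ratio of mean footprint CPM to mean RNA CPM, both counted over the coding sequence of the same gene, had a median of 1.73 on the log2 scale in 129 genes (interquartile range 1.01 to 2.45). In genes with 2 to 4 regions it was 0.95, in genes with 1 region 0.55 and in all 8918 genes measured in both assays 0.19. The ratio was above the median of all genes in 122 of the 129 and above their upper quartile in 109. It was largest for Lpp, a focal adhesion protein, at 166-fold, followed by Lrrc58 at 31.2-fold and Zfp871 at 25.5-fold. All 3 had few RNA reads, with 2 to 57 reads per control library. Slc5a3, outside these 129 because its RNA did not pass the filter, had a ratio of 59.4-fold on 5 to 8 RNA reads per control library. The lowest ratios were those of Taf1d, a subunit of an RNA polymerase I factor, at 0.159-fold and Eif4g2, a translation initiation factor, at 0.382-fold. CPM values are not divided by length, so only the ratio within a gene is compared here.

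**Figure D3:**
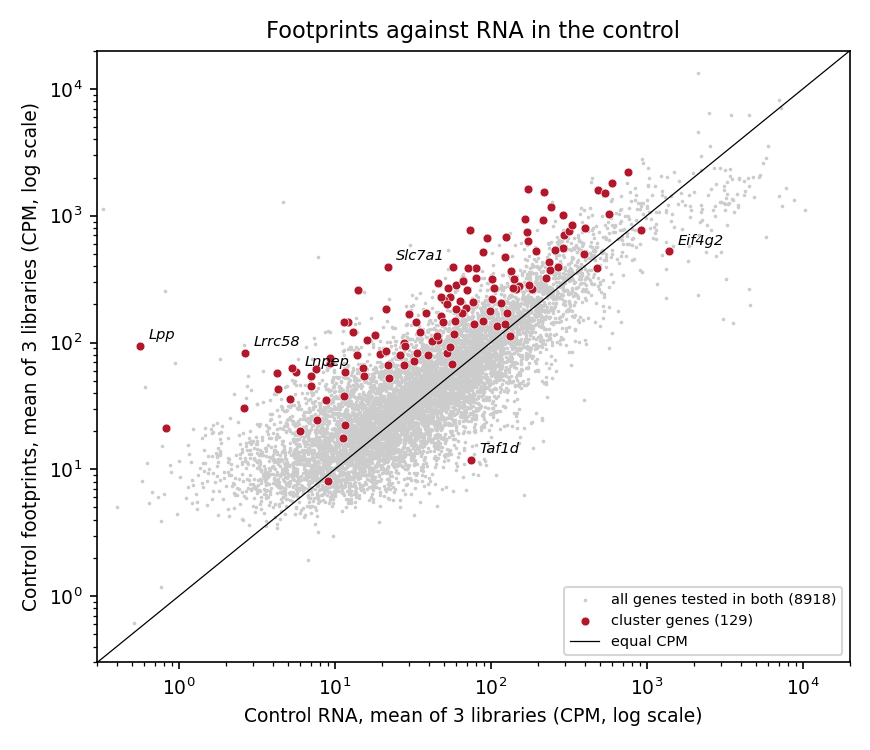
Mean control footprint CPM against mean control RNA CPM, both on log axes, for the 129 cluster genes tested in both assays (red) and all 8918 such genes (grey), with the line of equal CPM. Most cluster genes lie above the line and toward the upper edge of the grey cloud, while Taf1d and Eif4g2 lie below it.

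After Msi2 knockdown, RNA of the cluster genes was more often higher than lower. Of 129 genes that passed the filter on low counts, 60 were called higher (46.5%) and 14 lower (10.9%) by edgeR's quasi-likelihood test, with a threshold of 0.05 on the adjusted p. Over all 11117 genes tested, 43.8% were called, 22% higher and 21.7% lower. The median log2 difference was 0.34 in the cluster genes (interquartile range -0.01 to 0.78) and 0.00 in all genes, and 95 of the 129 were above 0. All 3 knockdown libraries lay above all 3 controls in 62 genes (48.1%) and below in 15 (11.6%), against 26.8 and 26.2% of all genes. In genes with 2 to 4 regions 104 of 375 were higher and 65 lower (27.7 and 17.3%, median 0.03), and in genes with 1 region 188 of 662 and 132 (28.4 and 19.9%, median 0.04). The only cluster gene left untested was Slc5a3, an inositol transporter, with 5 to 10 RNA reads per library. Cluster genes also had longer gene bodies, with a median span of 43719 bases against 23638 in all tested genes. After the trend of each library with gene span was removed, 57 were higher and 16 lower, with a median of 0.30, against 20.7 and 22.3% of all genes. Cluster genes were also more abundant, with a median control RNA of 58.9 CPM against 24.4 in all tested genes. The part of this level in the share of calls was not tested.

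Footprints moved the same way in fewer genes. All 130 genes were tested, and 41 were higher (31.5%) and 9 lower (6.92%) in the knockdown. Over all 8969 genes 16.1% were called, 8.76% higher and 7.38% lower. The median log2 difference was 0.17 against -0.01 in all genes. Control footprints had a median of 180 CPM in the cluster genes and 39.4 in all genes tested, and the part of this level in the calls was not tested. Knockdown libraries were all above the controls in 53 genes and all below in 16, against 15.9 and 15.4% of all genes. Among genes with 2 to 4 regions 59 of 373 were higher and 26 lower, and among genes with 1 region 90 of 643 and 63.

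The 2 assays were read side by side in 129 genes. There were 38 genes higher in both and 6 lower in both, 22 higher and 8 lower in RNA alone, and 49 called in neither. Footprints alone were higher in Actr2, Ppbp and Aplp2 and lower in Atl3, Dsc3 and Slc7a1. No gene was called in opposite directions. Taken singly, 22% of all genes tested were higher and 21.7% lower in RNA, and 8.76 and 7.38% in footprints. The shares of all genes in the joint groups are not given here, so these counts describe the cluster genes only. The log2 differences correlated across the 129 genes with Pearson's r of 0.79 and Spearman's rho of 0.75, against 0.74 and 0.66 across 8918 genes, which share the same libraries and are not independent replicates. Translational efficiency, tested as the difference between the footprint and the RNA change over all 12 libraries, was called in 1 of 130 cluster genes, Lpp, which was lower. Over all 10821 genes tested 0.203% were called, 0.129% higher and 0.0739% lower. The median was -0.07 in the cluster genes and 0.02 in all genes. None was higher. In edgeR 14 of the 130 had an unadjusted p under 0.05 in either direction, a count for which the share over all genes is not given here. DESeq2 called 6 of the 130 lower and 0 higher, against 0.351% lower and 0.564% higher of all genes.

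**Figure D4:**
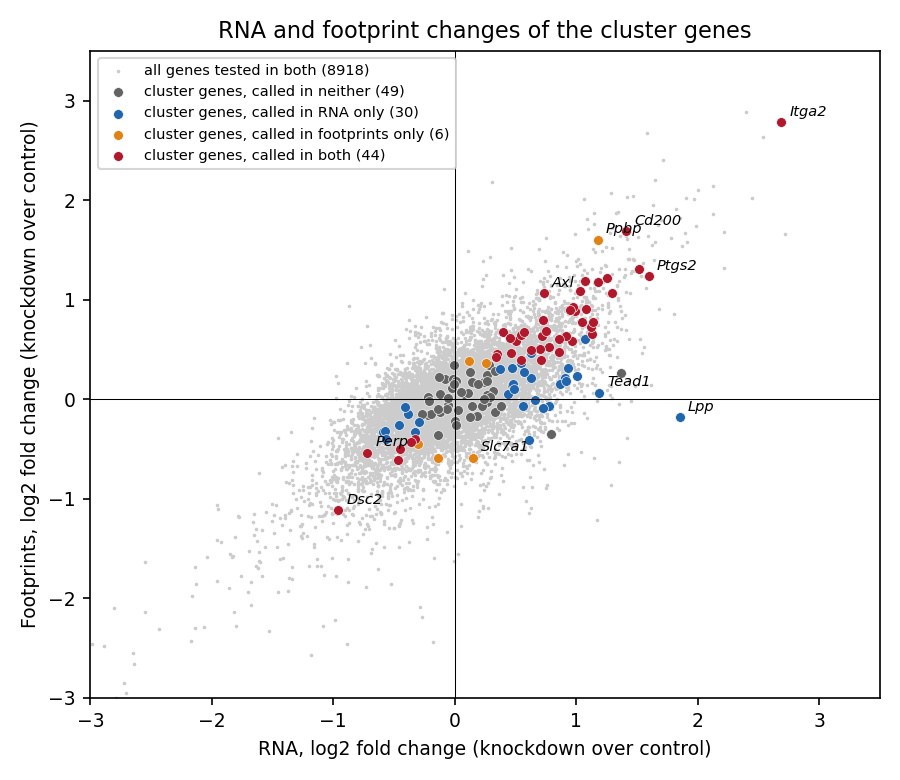
Log2 difference of knockdown over control in footprints against RNA for the 129 cluster genes tested in both assays, coloured by the assay in which edgeR called them, over all 8918 genes tested in both (grey, 23 of them outside the axes). Of the cluster genes, 38 were called higher in both assays, Itga2 farthest to the upper right, and 6 lower in both, with Dsc2 lowest, while Lpp and Tead1 lie to the right near the line of no footprint change.

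Genes with more regions were described in 4 groups, some of them small. For comparison, 22% of all genes tested were higher and 21.7% lower in RNA, and 8.76 and 7.38% in footprints. Of the 19 genes with 11 or more regions, 12 were higher in RNA and 0 lower, with a median log2 difference of 0.63, and in footprints 8 were higher and 0 lower. With 8 to 10 regions 15 of 31 were higher in RNA and 3 lower (median 0.34), with 6 or 7 regions 17 of 37 and 5 (0.38), and with 5 regions 16 of 42 and 6 (0.23). In footprints these 3 groups had 11 higher and 2 lower, 10 and 1, and 12 and 6. The 63 genes with 4 regions, outside the set, had 18 higher and 12 lower in RNA (0.09) and 12 and 9 in footprints. Across the cluster genes the number of regions was only weakly related to the change, with a rho of 0.14 for RNA and 0.13 for footprints over 129 and 130 genes. Split by spacing, the 50 genes with a median gap under 50 bases had 22 higher and 7 lower in RNA and 22 and 4 in footprints. The 80 genes with wider gaps had 38 and 7 of 79 in RNA and 19 and 5 in footprints. Median control footprints were 295 CPM in the genes with narrow gaps and 118 in those with wider gaps. Neither the difference between the groups nor the part of this level in it was tested.

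Among the 12 genes with the most regions, 7 were higher in RNA, 5 in footprints, 4 in both and none was lower in either. Of all genes tested, 22% were higher and 21.7% lower in RNA, and 8.76 and 7.38% in footprints. Lnpep RNA was 5.49, 4.45 and 7.11 CPM in the controls and 5.92, 7.77 and 6.16 in the knockdown. Its groups overlapped, as they did in footprints, and it was called in neither (RNA 0.24 ± 0.23, adjusted p = 0.407, footprints 0.17 ± 0.18, adjusted p = 0.59). Prrg4 RNA was 16.97, 11.1 and 13.5 CPM in the controls and 22.8, 24.2 and 17.9 in the knockdown, with no overlap. Its RNA rose by 0.63 ± 0.17 (adjusted p = 0.00736), while its footprints overlapped (0.21 ± 0.17, adjusted p = 0.453).

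Clcn5 rose in both assays. Its RNA was 6.51, 8.25 and 8.14 CPM in the controls and 13.7, 10.7 and 13.2 in the knockdown (0.72 ± 0.18, adjusted p = 0.00408). Footprints were 58.8, 72.9 and 55.0 CPM and 97.2, 84.2 and 113 (0.64 ± 0.17, adjusted p = 0.00649). Every knockdown library was above every control in both, but the footprint call was lost when control replicate 1 (adjusted p = 0.0547) or the third knockdown library (adjusted p = 0.0873) was left out.

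Emp1 also rose in both, without overlap. Its RNA was 298, 280 and 296 CPM against 460, 385 and 394 (0.50 ± 0.12, adjusted p = 0.00264). Its footprints were 1032, 1105 and 924 CPM against 1573, 1494 and 1523 (0.58 ± 0.13, adjusted p = 0.000966).

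Ptgs2 had the largest increase of these 12. Its 13 regions lie at chr1:150105991-150108239, 12 of them subpeaks, and the highest, of 50 reads, is at the 5' end of the stretch. RNA was 66.3, 49.3 and 84.8 CPM in the controls and 172, 262 and 170 in the knockdown (1.60 ± 0.22, adjusted p = 0.000218). Footprints were 346, 277 and 315 CPM and 649, 844 and 728 (1.24 ± 0.14, adjusted p = 8.76e-09). The lowest knockdown library was well above the highest control in each assay.

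Of the rest of the 12, Cdcp1 and Lrrc58 rose in RNA alone (0.48 ± 0.14, adjusted p = 0.00964, and 0.91 ± 0.29, adjusted p = 0.019). The Lrrc58 call, on 32 to 122 RNA reads per library, was lost when replicate 1 of the controls (adjusted p = 0.108) or of the knockdown (0.0591) was left out. Actr2 rose in footprints alone, from 539, 466 and 569 CPM to 735, 602 and 700 (0.38 ± 0.13, adjusted p = 0.0381). That call was lost in DESeq2 (adjusted p = 0.0527), with upper-quartile factors (0.0517), with the span trend removed (0.0503) and without any one of control replicates 1 and 2 and knockdown replicates 1 and 3 (0.0809 to 0.189). Cald1, Msn and Gja1 were called in neither, with RNA differences of -0.12 ± 0.13, 0.01 ± 0.15 and 0.16 ± 0.12. With the span trend removed Cald1 RNA passed as lower (-0.35, adjusted p = 0.0143).

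A list of 20 genes of hemidesmosomes and basement membrane adhesion held 6 cluster genes, among them the integrin chains Itga2, Itga3 and Itgav. These 6 were all higher in RNA (median 0.70) and in footprints (median 0.65), and of the whole list 16 of 20 were higher in RNA with 1 lower, and 16 higher and 0 lower in footprints. Of the fibroblast and feeder markers, whose sums are given above, 4 of 11 passed the filter and 2, Acta2 and Pdgfra, were higher in RNA, and their part in these changes was not tested.

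Itga2, the alpha chain of a collagen receptor, changed most. Its 6 regions lie at chr13:114833101-114836030, with centres 532 bases apart in the median. RNA was 1.90, 1.31 and 4.62 CPM in the controls and 16.3, 17.9 and 12.7 in the knockdown, a log2 difference of 2.69 ± 0.34 (adjusted p = 7.2e-05). Footprints were 24.1, 23.5 and 43.7 CPM and 202, 148 and 202 (2.78 ± 0.19, adjusted p = 1.69e-13). In both assays control replicate 3 was the highest control and still lay far below the lowest knockdown library.

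Itgav, an alpha chain of receptors for vitronectin and fibronectin, had 9 regions and no subpeak at chr2:83803370-83806646. Its RNA rose from 13.6, 9.82 and 18.7 CPM to 28.5, 37.0 and 25.7 (1.13 ± 0.20, adjusted p = 0.000424) and its footprints from 233, 238 and 306 to 408, 391 and 410 (0.66 ± 0.13, adjusted p = 0.000475). Neither pair of groups overlapped.

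Itga3, an alpha chain of a laminin receptor, had 5 regions spaced at 412 bases. RNA was 533, 488 and 608 CPM in the controls and 973, 975 and 1009 in the knockdown (0.86 ± 0.12, adjusted p = 5.43e-05). Footprints of Itga3 were 1445, 1500 and 1555 against 2230, 2180 and 2410 (0.60 ± 0.12, adjusted p = 0.000587). Every control lay below every knockdown library in both assays.

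**Figure D5:**
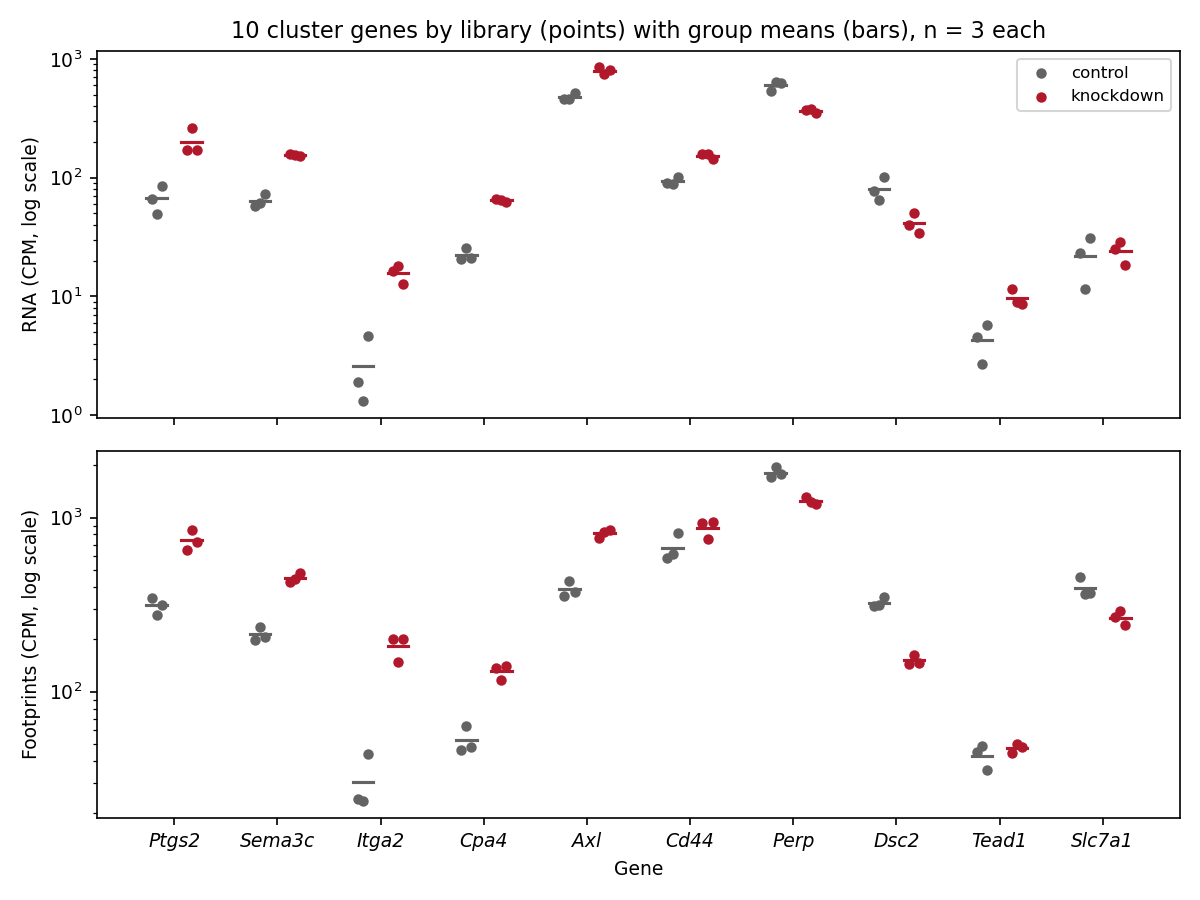
RNA (top) and footprint (bottom) CPM, on log axes, of 10 cluster genes in each of 3 control (grey) and 3 knockdown (red) libraries, with bars at the group means. Itga2 shows the widest separation, Perp and Dsc2 are lower in the knockdown in both panels, and Tead1 and Slc7a1 are apart in one panel and close or overlapping in the other.

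Of 34 genes of surface receptors and signalling 8 carried clusters, Bmpr2, Cd44, Igf1r, Lrp6, Met, Sdc1, Sdc4 and Sema3c. In RNA 6 were higher and 2, the syndecans Sdc1 and Sdc4, were lower, against 18 higher and 3 lower in the list. In footprints 4 were higher, Cd44, Igf1r, Met and Sema3c, and none was lower, against 11 and 3.

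Sema3c, a secreted semaphorin, had 11 regions at chr5:17727477-17730319, the last of them the highest with 136 reads. Its RNA was 57.3, 60.9 and 72.4 CPM in the controls and 159, 155 and 153 in the knockdown (1.30 ± 0.11, adjusted p = 4.14e-07). Footprints were 199, 235 and 207 CPM and 428, 443 and 480 (1.07 ± 0.13, adjusted p = 1.09e-07). Every knockdown library lay above every control in both assays, and in RNA the knockdown libraries were close to each other.

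Met, the receptor of hepatocyte growth factor, had 5 regions. It rose in RNA from 106, 94.7 and 149 CPM to 241, 227 and 218 (0.98 ± 0.14, adjusted p = 5.95e-05) and in footprints from 186, 197 and 234 to 389, 349 and 419 (0.93 ± 0.14, adjusted p = 2.55e-06). Igf1r, the receptor of insulin-like growth factor, had 10 widely spaced regions (771 bases in the median) and rose by 0.78 ± 0.12 in RNA and 0.53 ± 0.14 in footprints (adjusted p = 0.000104 and 0.0057). No library of either gene crossed into the other group.

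Cd44 had 17 regions, all subpeaks, that covered 91.8% of 2928 bases at chr2:102811382-102814309. Its RNA rose from 90.7, 88.9 and 102 CPM to 159, 157 and 144 (0.71 ± 0.11, adjusted p = 8.89e-05). Footprints were 588, 615 and 813 CPM in the controls and 927, 750 and 942 in the knockdown (0.39 ± 0.14, adjusted p = 0.043). In footprints the groups overlapped, and the call was lost in DESeq2 (adjusted p = 0.0855), with upper-quartile factors (0.0542), without the span trend (0.0759) and without control replicate 1 or 2 or knockdown replicate 1 or 3 (0.137 to 0.256).

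Axl, the receptor tyrosine kinase for Gas6, is in none of the lists and had 5 regions within 967 bases at chr7:25757596-25758562. RNA was 461, 459 and 516 CPM in the controls and 846, 743 and 798 in the knockdown (0.73 ± 0.12, adjusted p = 0.000162). Footprints were 357, 432 and 375 CPM and 768, 830 and 852 (1.07 ± 0.13, adjusted p = 7.62e-08). Cd200 rose from 8.20, 9.34 and 9.68 CPM to 30.0, 18.2 and 24.2 in RNA (1.41 ± 0.18, adjusted p = 1.53e-05) and by 1.69 ± 0.32 in footprints (adjusted p = 0.000205), on 7 to 50 footprint reads per library. Neither gene had an overlap between groups.

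Cpa4 and Ppbp encode secreted proteins. Cpa4, a secreted carboxypeptidase, had 6 regions within 931 bases at chr6:30590818-30591748. Its RNA was 20.5, 25.7 and 20.9 CPM in the controls and 66.2, 64.2 and 62.4 in the knockdown (1.52 ± 0.12, adjusted p = 2.2e-07). Footprints of Cpa4 were 46.5, 63.5 and 48.0 CPM and 137, 116 and 140 (1.30 ± 0.17, adjusted p = 1.82e-07). Ppbp, the gene with the tightest spacing, had RNA of 41.2, 84.2 and 31.3 CPM in the controls and 126, 121 and 111 in the knockdown, and footprints of 60.1, 128 and 60.7 CPM against 279, 285 and 232. Control replicate 2 was the highest control in both assays. Footprints of Ppbp passed (1.60 ± 0.27, adjusted p = 0.00336) and RNA did not (1.18 ± 0.38, adjusted p = 0.0566), although RNA passed in DESeq2 (adjusted p = 0.0192), limma-voom (3.63e-06), 1 fit over 12 libraries (0.0357), with a filter of 10 CPM (0.0177), upper-quartile factors (0.0418), the replicate block (0.00121) or the span trend removed (0.0108), and without control replicate 2 (1.54e-08). Its footprint call was lost without knockdown replicate 2 (adjusted p = 0.0543) and without the shallowest library of each group (0.156).

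Cell-cell junction genes went in both directions. The list of 26 held 8 cluster genes, Cdh1, Cldn1, Ctnnd1, Dsc2, Dsc3, Dsg3, Gja1 and Perp. In RNA 2 were higher (Ctnnd1 and Cldn1) and 3 lower (Perp, Dsc2 and Cdh1), against 7 and 7 in the list. In footprints 1 was higher (Ctnnd1) and 4 lower (Perp, Dsc2, Dsc3 and Cdh1), against 5 and 9.

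Perp, a membrane protein of desmosomes, had 7 regions, all subpeaks, that covered 99.2% of 1463 bases at chr10:18855649-18857111. RNA was 539, 644 and 622 CPM in the controls and 369, 381 and 347 in the knockdown, and fell by 0.72 ± 0.12 (adjusted p = 0.000193). Footprints were 1711, 1944 and 1773 CPM and 1307, 1234 and 1198, and fell by 0.54 ± 0.13 (adjusted p = 0.00213). All knockdown libraries lay below all controls.

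Dsc2, a desmosomal cadherin with 5 regions over 1772 bases, had the largest decrease among the cluster genes. Its RNA was 77.7, 64.2 and 101 CPM in the controls and 40.1, 50.3 and 34.4 in the knockdown, and fell by 0.96 ± 0.16 (adjusted p = 0.000312). Its footprints were 311, 315 and 348 CPM and 145, 162 and 146, and fell by 1.11 ± 0.14 (adjusted p = 9.34e-08). Cdh1, the cadherin of adherens junctions, fell by 0.32 ± 0.11 in RNA and by 0.40 ± 0.13 in footprints (adjusted p = 0.0237 and 0.0324), again without overlap between the groups.

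Ctnnd1, the p120 catenin that binds the cadherin tail, went the other way. It had 9 regions and no subpeak over 5536 bases at chr2:84597370-84602905. RNA was 79.0, 76.1 and 85.6 CPM in the controls and 161, 162 and 149 in the knockdown (0.97 ± 0.11, adjusted p = 4.3e-06), and footprints were 351, 404 and 403 CPM and 549, 598 and 587 (0.58 ± 0.13, adjusted p = 0.00118). Every knockdown library was above every control.

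The remaining lists held few cluster genes. The list of actin and membrane skeleton genes held 6 (Msn, Myh9, Pdlim5, Rdx, Tpm4 and Vcl), of which Myh9, a heavy chain of non-muscle myosin, and Vcl, vinculin, were higher in both assays and none was lower, against 16 higher and 1 lower of 30 in RNA and 17 and 0 in footprints. Myh9 rose by 0.57 ± 0.14 in RNA and 0.67 ± 0.13 in footprints (adjusted p = 0.00394 and 0.000189). Among 40 RNA-binding proteins and regulators of 3' UTRs, 4 carried clusters (Ago2, G3bp1, Mbnl1 and Rbms1). Of these 4, 2 were higher in RNA and 0 in footprints, against 17 higher and 0 lower in RNA and 3 and 3 of 39 in footprints in the list. Ago2 RNA was 16.1, 20.3 and 22.4 CPM in the controls and 34.3, 38.8 and 37.5 in the knockdown (0.92 ± 0.14, adjusted p = 7.99e-05), while its footprints differed by 0.18 ± 0.16 (adjusted p = 0.493). Its translational efficiency (-0.72 ± 0.20) did not pass in edgeR (adjusted p = 0.137) and passed in DESeq2 (0.0301), limma-voom (0.0431), with no filter (0.0471) and without RNA control replicate 3 (0.012).

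Trafficking and transport membrane proteins gave 3 cluster genes of 34. Of these 3, 1 was higher and 1 lower in RNA, against 4 higher and 17 lower in the list. Further lists gave 1 each, and a list's name need not describe each of its genes. These were matrix and secreted matricellular genes (Plau), transcription factors and chromatin (Hmga2), and ubiquitin and protein turnover (Nedd4). The others were kinases, phosphatases and small GTPases (Ywhag), and translation and ribosomal proteins (Eif4g2). None of the 20 keratin and cornified envelope genes and none of the 24 mitochondrial genes carried a cluster. Those lists had 3 higher and 12 lower of 19 and 6 higher and 12 lower of 24 in RNA.

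Lamp2, a lysosomal membrane protein with 9 regions, all subpeaks, at chrX:38419619-38421751, had RNA of 124, 136 and 146 CPM in the controls and 98.5, 107 and 90.8 in the knockdown, and it fell by 0.45 ± 0.11 (adjusted p = 0.00363). Its footprints were 379, 356 and 367 CPM and 277, 277 and 226, and fell by 0.50 ± 0.13 (adjusted p = 0.00701), a call lost without knockdown replicate 3 (adjusted p = 0.132). Scarb2, also of the lysosomal membrane, fell by 0.57 ± 0.11 in RNA (adjusted p = 0.000686), Tmed10, a cargo receptor between endoplasmic reticulum and Golgi, by 0.59 ± 0.11 (adjusted p = 0.000434) and Syngr2 by 0.58 ± 0.12 (adjusted p = 0.000781). None of these 3 passed in footprints, with differences of -0.40 ± 0.15, -0.33 ± 0.13 and -0.32 ± 0.16, although Scarb2 passed in limma-voom (adjusted p = 0.0422), with upper-quartile factors (0.0461) or the span trend removed (0.0299), and without control replicate 2 (0.0343).

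Cav2, a caveolin, had footprints of 143, 161 and 205 CPM in the controls and 114, 112 and 99.3 in the knockdown, and they fell by 0.61 ± 0.15 (adjusted p = 0.00432). Without knockdown replicate 3 that call was lost (adjusted p = 0.0537). Its RNA groups overlapped, and the RNA call (-0.47 ± 0.15, adjusted p = 0.0187) was lost without the span trend (adjusted p = 0.0674), without control replicate 1 or 3 (0.0654 and 0.0563) and without knockdown replicate 3 (0.103).

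Slc7a1, a transporter of cationic amino acids with 5 regions, was lower in footprints alone. Its RNA was 23.0, 11.5 and 30.9 CPM in the controls and 24.8, 28.8 and 18.3 in the knockdown, so the groups overlapped (0.15 ± 0.34, adjusted p = 0.758). Footprints were 455, 363 and 371 CPM and 268, 289 and 240, without overlap, and fell by 0.59 ± 0.14 (adjusted p = 0.00193). In 1 fit over all 12 libraries the footprint call was lost (adjusted p = 0.277), and its translational efficiency did not pass (-0.72 ± 0.43, adjusted p = 0.549) unless low genes were kept (0.0166).

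Several cluster genes rose in RNA with little difference in footprints. Tead1, a transcription factor that works with YAP, had 11 regions over 7486 bases at chr7:112898939-112906424. Its RNA was 4.56, 2.71 and 5.74 CPM in the controls and 11.5, 8.97 and 8.63 in the knockdown (1.19 ± 0.25, adjusted p = 0.00113). Its footprints were 44.8, 48.7 and 35.3 CPM and 44.3, 50.1 and 48.1, which overlapped (0.07 ± 0.19, adjusted p = 0.864). Its translational efficiency differed by -1.10 ± 0.31 and did not pass (adjusted p = 0.135).

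Lpp had the only called translational efficiency, on very few RNA reads. With 6 regions at chr16:24983466-24986142, it had 2, 17 and 10 RNA reads in the controls and 27, 19 and 47 in the knockdown, or 0.103, 0.742 and 0.856 against 2.81, 1.52 and 1.76 CPM (1.85 ± 0.52, adjusted p = 0.00866). Footprints were 84.3, 93.0 and 106 CPM against 79.1, 92.3 and 78.8, which overlapped (-0.18 ± 0.16, adjusted p = 0.51). Translational efficiency fell by 1.99 ± 0.41 (adjusted p = 0.0336). The call was lost with the replicate number as a block (adjusted p = 0.0513) and without any one of control RNA replicate 1, knockdown RNA replicates 1 and 3, control footprint replicates 1 to 3 or knockdown footprint replicates 1 and 3 (0.0526 to 0.153). The RNA call was lost without knockdown replicate 1 (adjusted p = 0.0519).

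Sh3pxd2a, a scaffold of podosomes with 9 regions over 5213 bases, rose in RNA from 107, 103 and 121 CPM to 208, 211 and 214 (0.93 ± 0.11, adjusted p = 8.25e-06). Its footprints differed by 0.31 ± 0.14 (adjusted p = 0.138), although all 3 knockdown libraries were above the controls. Translational efficiency of Sh3pxd2a (-0.60 ± 0.18) did not pass in edgeR (adjusted p = 0.148) and passed in DESeq2 (0.0162) and without RNA control replicate 3 (0.0135). Cers6 rose in RNA by 0.73 ± 0.21 (adjusted p = 0.00965), a call lost without the span trend (adjusted p = 0.068), and its footprints overlapped (-0.09 ± 0.18, adjusted p = 0.785). For Tmpo neither assay differed beyond the spread (RNA -0.06 ± 0.12, footprints -0.10 ± 0.13).

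Taf1d had more RNA than footprint reads and rose in both. Its 5 regions lie at chr9:15313801-15315756. RNA was 68.0, 81.7 and 74.9 CPM in the controls and 134, 161 and 179 in the knockdown (1.08 ± 0.12, adjusted p = 6.61e-06). Footprints were 14.9, 13.8 and 7.05 CPM and 23.7, 34.1 and 20.5 (0.90 ± 0.28, adjusted p = 0.024), on 5 to 47 reads per library. That footprint call was lost in DESeq2 (adjusted p = 0.089) without knockdown replicate 1 or 2 (0.0834 and 0.0787) and without the shallowest library of each group (0.112). Zfp871, with 8 to 44 RNA reads per library, did not pass in RNA (1.37 ± 0.55, adjusted p = 0.0504) or footprints (0.26 ± 0.24, adjusted p = 0.523), although its RNA passed in 1 fit over all 12 libraries (adjusted p = 0.0128), with no filter (0.0246) and without control replicate 3 or knockdown replicate 1 or 3 (0.0113 to 0.0487).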

How the data were processed

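Raw counts of RNA and footprint reads over the coding sequence of 20572 genes were deposited. For these the submitters' processing notes list TopHat, HTSeq and DESeq, without versions, and mm10. The deposited region lists, in mm10 coordinates, give a signal, the total peak height over 5 CLIP libraries, and counts of reads per library. Height equalled the summed reads in all 594 regions of the clusters not named as subpeaks and was lower in all 398 subpeaks, so heights rather than summed reads were used. For CLIP the same notes list cutadapt and Novoalign. The caller and its settings are not given in the sources used here. Of each RNA library, 32.3 to 35.2% of reads lay outside the counted coding sequences, 0.175 to 0.228% were ambiguous and 13.4 to 24.5% aligned to several places, and all these stayed out of library sizes.

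Regions were grouped by gene symbol (5 or more). All 130 symbols matched the count tables, Ago2 as Eif2c2 through a RefSeq synonym. The tests used edgeR 4.0.16 under R 4.3.3. Genes passed filterByExpr (minimum count 10, minimum total 15), libraries were scaled by TMM, and a robust quasi-likelihood fit compared 3 control with 3 knockdown libraries in each assay. Benjamini-Hochberg adjustment ran over all genes tested, with a threshold of 0.05. For translational efficiency, 1 model over 12 libraries tested the interaction between assay and knockdown. Differences are log2, knockdown over control, given with the fitted standard error. All CPM values carry the TMM scaling. Scripts were tested on simulated data.

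Genes named are the 12 with the most regions, the 3 of smallest and of largest median spacing, the 3 of longest stretch, up to 5 higher and 5 lower of smallest p per assay, and up to 4 genes with values per list, with exceptions stated or taken from counts of 5 or fewer. A gene that this rule names is not reported here. The members and lists were chosen with earlier results of these data known. Alternatives were DESeq2 1.42.0, limma-voom (limma 3.58.1), upper-quartile factors, no filter, 10 CPM in 3 libraries, a replicate block, 1 fit over 12 libraries, removal of the span trend (loess, span 0.5), the shallowest footprint library of each group left out, each library left out, thresholds of 4, 6 and 8 regions, heights of 20 or more, and, added after the data were seen, joining of regions under 50 bases apart. UTR length and sequence were not computed here.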

Additional observations from a re-analysis of the deposited data

How the results depend on the processing

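Direction held for every count and median of the cluster genes in RNA and footprints under all alternatives run, with more genes higher than lower, and no called value of a named gene reversed. Counts moved with the size of the set, while the shares over all genes stayed those given above. With 4 or more regions (193 genes), 26 genes were lower in RNA, 18 in footprints and 2 in translational efficiency, and with 6 or more, 8 and 3 in the first 2. With 8 or more (50 genes, 538 regions) RNA had 27 higher and 3 lower, footprints 19 and 2, and efficiency 0 lower. With heights of 20 or more (30 genes, 214 regions) the counts were 15 and 1, 11 and 2, and 0. With near regions joined (60 genes, 373 regions, median distance 581.5 and stretch 3814.5 bases) they were 31 and 3, with a median RNA difference of 0.55, and 13 and 2. The gap between ends in place of the centre distance was 55 bases.

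Replicate numbers did not pair the libraries (same-number correlations of deviations -0.276 to 0.057 in RNA and -0.003 to 0.05 in footprints). With the number as a block, 57 genes were higher and 9 lower in RNA, 42 and 9 in footprints and 0 and 0 in efficiency. Of all genes that setting called 18.4 and 17.4% in RNA, 8.8 and 7.86% in footprints and 0.0739 and 0.0554% in efficiency. In efficiency, lower genes numbered 2 with a filter of 10 CPM, upper-quartile factors or the span trend removed, 3 in limma-voom, 6 in DESeq2 and 8 without a filter. The shares of all genes called lower were, in the same order, 0.123, 0.12, 0.148, 0.129, 0.351 and 0.529%. Leaving out 1 library at a time gave 50 to 66 higher and 8 to 15 lower in RNA, 28 to 42 and 4 to 10 in footprints, and 0 to 10 lower in efficiency, the 10 without RNA control replicate 3. Of all genes these settings called 15.4 to 23.8% higher and 16.6 to 24.2% lower in RNA. In footprints they called 4.85 to 9.24% and 4.04 to 7.82% of all genes. Without RNA control replicate 3, 1.44% of all genes were lower in efficiency and 0.909% higher. RNA had fewest lower without knockdown replicate 3 (8) and control replicate 1 (9), and footprints without knockdown replicates 3 (4) and 1 (5). DESeq2 called 31 and 8 in footprints, against 5.36 and 4.16% of all genes. The shallowest footprint library, with 512256 counts, limits what footprints can show for low genes.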

Other observations

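The cluster genes were spread over the chromosomes, with 12 each on 11 and 16 and 11 on 5. Chromosome 16 held 9.23% of the cluster genes and 3.25% of all genes in the 3' UTR list, and chromosome 11 held 9.23 and 9.84%, which is a description of shares with no test. Inside the RefSeq genes of 49 of the 130 members, on the same strand, the list of all regions had 127 further regions outside the 3' UTR list, with 11 in Pls3, an actin-bundling protein, and 9 in Cdcp1, both singled out after their values were seen.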
